A study of Mus musculus with 5 samples.

Results

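Abce1, Abcf1 and Abcf2 encode 3 ATPases of the ABC family that work on ribosomes and carry no membrane-spanning part. They were taken by name from the 2835 genes with a covered exon position in these data. Every position of the files that lay on an exon of a member, on the strand of the call in GENCODE M21 (mouse build mm10), was used. A position was treated as a site when it had more than 25 valid calls in every library of its dataset and an m6A level of 25% or more in at least 1 of them. The m6A level is the percentage of valid calls, that is calls passing the confidence filter, in which a nanopore read was called N6-methyladenosine. By this rule the members held 11 of 6201 sites in the METTL3 inhibition dataset and 11 of 1886 sites in the Mettl5 dataset. These were 14 distinct sites, of which 8 were sites in both datasets.

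The METTL3 inhibition dataset had 1 library per condition from E14 mouse embryonic stem cells (mESCs). The treated cells received 30 μM STM2457, a small molecule that blocks the catalytic site of the mRNA methyltransferase METTL3, over 48 h, and the control cells received 0.025% v/v DMSO. Both conditions carried the reporters 2C::3xtbGFP-PEST and Zscan4::mCherry-PEST, a doxycycline-driven APOBEC1-YTH-HA-IRES-tdiRFP that was left uninduced, and a homozygous FKBP12 F36V degron tag on METTL3, also left uninduced. The Mettl5 dataset had 1 library each of untreated wild-type (WT) mESCs and of 2 untreated Mettl5-KO clones (genotype Mettl5KO), each a single clone derived in earlier work. METTL5 is the methyltransferase of a single adenosine in 18S rRNA, and the comparison of the clones with WT asked whether it also methylates mRNA. The inhibitor comparison showed how calls respond when METTL3 is blocked. With 1 library per condition, the tests on reads below compare libraries, and the spread between cultures is not known. The Mettl5 and Mettl3 genes had 0 positions in the files used here, so neither genotype could be checked.

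The libraries held between 17897440 and 71574467 valid calls, and all intervals given here cover counting error only. Of 9 mESC markers, 8 were covered in the METTL3 inhibition dataset and 7 in the Mettl5 dataset. None of the 5 primitive endoderm, 5 mesoderm and neural, or 4 fibroblast markers was covered in either dataset.

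ABCE1 splits ribosomes into subunits after termination or rescue, so that the subunits can be used again. ABCF1 binds the ribosome and the initiation factor eIF2 and acts in translation initiation, and ABCF2 is a ribosome-associated ABC-F protein related to yeast Arb1. In mRNA, METTL3 and its partner METTL14 place m6A mostly within the motif DRACH, in which D is A, G or T, R is A or G and H is A, C or T. Such m6A is known to concentrate around stop codons and in 3′ UTRs within long last exons.

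All 14 sites lay in the 3′ UTR of the last exon of the member, and they are named below by their distance in nucleotides from the stop codon. Abcf1 (ENSMUSG00000038762.15, chr17:35956819-35969761, minus strand) has 23 exons in its main GENCODE M21 transcript, with a last exon of 771 nt and a 3′ UTR of 604 nt. Abcf2 (ENSMUSG00000028953.10, chr5:24565345-24577467, minus strand) has 14 exons, with a last exon of 659 nt and a 3′ UTR of 521 nt. Abce1 (ENSMUSG00000058355.8, chr8:79683462-79711740, minus strand) has 18 exons, with a last exon of 1816 nt and a 3′ UTR of 1768 nt. The windows that carry the results are printed here from the GENCODE M21 transcripts (mm10), 5′ to 3′. Capitals mark the 5 bases of the motif, whose middle base is the called A. They were chosen to show the near-saturated sites, the sites outside DRACH, the neighbouring pair in Abcf2 and further Abcf1 sites on which the text below turns.
Abcf1 +225, chr17:35957188-35957208: atccgtgtGGATTgtgtcctt
Abcf1 +386, chr17:35957027-35957047: gccactcaGAACTgaccctgg
Abcf1 +423, chr17:35956990-35957010: ggtactacTGACTcactgaca
Abcf1 +480, chr17:35956933-35956953: tgagacctGGACTgtttcacc
Abcf1 +527, chr17:35956886-35956906: tctcgtggGGACTtgagggca
Abcf2 +71, chr5:24565785-24565805: gccactcaGGACAggaccctg
Abcf2 +76, chr5:24565780-24565800: tcaggacaGGACCctggggct
Abcf2 +157, chr5:24565699-24565719: tcatatctCCAGCtggacagc
Abcf2 +215, chr5:24565641-24565661: gtctgtctGGACTcggctggc
Abce1 +139, chr8:79685081-79685101: gttgtcttGTAAAttgttgtt
Abce1 +1502, chr8:79683718-79683738: taggctttCTAAAaatgaatt

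Of these windows, those of Abcf1 +386 and Abcf2 +71 share a run of 9 bases up to the base that begins the motif, and the windows of Abcf2 +71 and +76 overlap. Within the METTL3 inhibition dataset, the 7 Abcf1 sites spanned 332 bases and ended 48 nt before the end of the transcript. The 4 Abcf2 sites spanned 145 bases. DRACH motifs held 6 of the 7 Abcf1 sites and 3 of the 4 Abcf2 sites. The others were a GGATT in Abcf1 and a CCAGC in Abcf2. Neither Abce1 site was in a DRACH motif.

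Upon STM2457 treatment, m6A fell at 10 of the 11 member sites and rose at 0, while 1 site of Abcf2 did not pass the test. Over all 6201 sites, 91.5% were called lower and 0.323% higher at an adjusted p below 0.05, so the share in the members was near the background. The test was Fisher's exact test on m6A and other valid calls, taken two-sided, and p values were adjusted by Benjamini and Hochberg's method across every site of a comparison, and the same test stands behind each adjusted p below. Of the 11 member sites, 10 (90.9%) also had an unadjusted p below 0.05, beside 92.0% of all sites. The member sites had a median level of 52.0% with DMSO and 15.9% with STM2457, with a median relative decrease of 77.5%, beside 79.9% over all sites. More of the member sites stayed at 25% or more with the inhibitor, with 5 of 11 (45.5%) against 22.2% of all sites, which is given as a description.

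**Figure D1:**
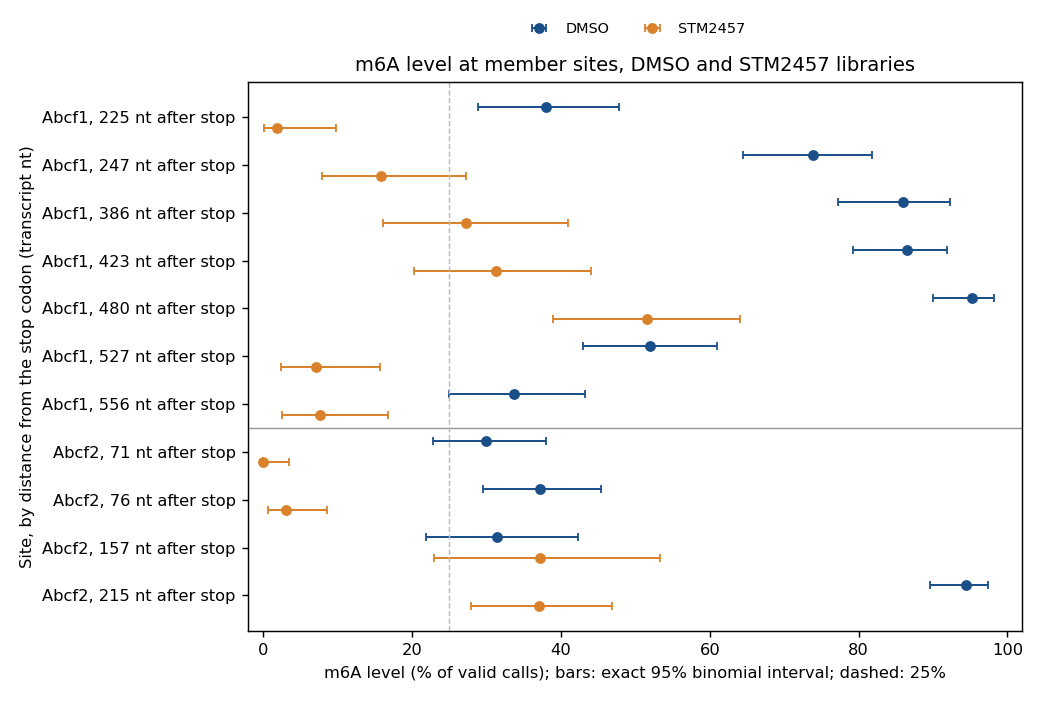
m6A level on the x axis (percent of valid calls) at the 11 member sites of the METTL3 inhibition dataset, ordered by gene and by distance from the stop codon on the y axis, with exact 95% binomial intervals and a dashed line at 25%. In 10 sites the STM2457 point lies left of the DMSO point with no overlap of the intervals, and at Abcf2 +157 the intervals overlap.

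In Abcf1, the highest level was at the GGACT of +480. There 121 of 127 DMSO calls were m6A (95.3%, exact 95% interval 90 to 98.2) against 34 of 66 STM2457 calls (51.5%, 38.9 to 64.0). The relative decrease of 45.9% (95% interval 31.5 to 57.4) was the smallest among the DRACH sites of the members, with an adjusted p of 6.99e-12 by Fisher's exact test. Of the 761 sites of all genes at 90% or more in DMSO, the median level with STM2457 was 42.9%, and 64.9% of them lay below Abcf1 +480.

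Further sites of Abcf1 started from high levels and kept part of them. At +423, a TGACT, 109 of 126 DMSO calls (86.5%) and 20 of 64 STM2457 calls (31.3%) were m6A. At +386, a GAACT, 80 of 93 DMSO calls (86.0%) and 15 of 55 STM2457 calls (27.3%) were m6A, with 23.1% and 15.4% of calls failing the confidence filter. At +247, a GGACT, 79 of 107 DMSO calls (73.8%) and 10 of 63 STM2457 calls (15.9%) were m6A. The relative decreases were 63.9%, 68.3% and 78.5% for +423, +386 and +247, so the site lowest in DMSO had the largest decrease of these.

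At the remaining DRACH sites of Abcf1, the level with STM2457 was under 10%. The GGACT of +527 went from 66 of 127 calls (52.0%) to 5 of 71 (7.04%), a relative decrease of 86.5% (67.9 to 94.3). The GAACT of +556 went from 37 of 110 calls (33.6%) to 5 of 66 (7.58%), a relative decrease of 77.5% (45.6 to 90.7). Every one of these Abcf1 sites was called lower by Fisher's exact test, with adjusted p values from 2.50e-13 at +423 to 7.64e-05 at +556.

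The largest relative decrease in Abcf1 was at the GGATT of +225, which is outside DRACH because a T follows the called A in the reference. In DMSO 41 of 108 calls (38.0%, 28.8 to 47.8) were m6A and in STM2457 1 of 55 (1.82%, 0.0460 to 9.72), a relative decrease of 95.2% (66.1 to 99.3, adjusted p of 1.04e-07 by Fisher's exact test). Over all genes, 50 sites had this GGATT motif, and 48 of them were called changed, with a median relative decrease of 84.5%. The 709 sites outside DRACH had a median decrease of 45.2%, so GGATT sites lay nearer to DRACH sites, whose median decrease was 80.8%. In Abcf2 a GGATT lay at +326, just under the threshold for a site, with 18.5% in DMSO and 3.67% in STM2457.

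In Abcf2, the GGACT of +215 stood far above the rest of the transcript. It had 152 of 161 m6A calls in DMSO (94.4%, 89.7 to 97.4) and 40 of 108 in STM2457 (37.0%, 27.9 to 46.9). The relative decrease was 60.8% (49.7 to 69.4) and the adjusted p was 4.24e-24 by Fisher's exact test. Of the 761 sites at 90% or more in DMSO, 35.0% lay below it in STM2457.

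The adjacent Abcf2 sites +71 and +76 were almost emptied. At the GGACA of +71, 45 of 150 DMSO calls were m6A (30%, 22.8 to 38.0) and 0 of 104 STM2457 calls were (exact 95% interval 0 to 3.48). Set at a floor of 3 calls, or 2.885%, the STM2457 level was at least 90.4% below the measured DMSO level, a bound that leaves out the error of that DMSO level. The GGACC of +76 had 57 of 153 (37.3%) in DMSO and 3 of 100 (3%) in STM2457, a relative decrease of 92.0% (75.0 to 97.4). Both were called lower, with adjusted p values of 1.12e-11 at +71 and 5.26e-11 at +76 by Fisher's exact test. These sites are 5 bases apart and were read from the same molecules, so they are not independent. The same limit holds more widely, since the 7 Abcf1 sites spanned 332 bases and the 4 Abcf2 sites 145. Sites of a gene can share reads, so the counts of member sites above are not counts of independent sites.

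The exception was the CCAGC of Abcf2 +157. There 27 of 86 DMSO calls (31.4%, 21.8 to 42.3) and 16 of 43 STM2457 calls (37.2%, 23.0 to 53.3) were m6A, a difference of 5.81 percentage points (95% interval −10.7 to 23.2, adjusted p = 0.570 by Fisher's exact test). At this position 47.6% of calls in DMSO and 59.8% in STM2457 failed the confidence filter, a DMSO share above that at 98.2% of all sites. Their part in the level was not tested. Over all genes, 16 sites had a CCAGC motif, with medians of 25% (DMSO) and 30.9% (STM2457), and 1 was called changed.

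Positions of the members on either side of the threshold are given without a test. The AGACT of Abcf2 +39 had 20.9% in DMSO and 0% in STM2457, and the GGACA of Abcf2 +163 had 16.9% and 4.08%. In Abcf1 the GAACT of +548 had 16.5% and 2.82%, and the AGACC of +370 had 16.4% and 3.08%. Just inside the threshold were Abcf2 +71, at 30%, and Abcf1 +556, at 33.6%. Positions outside DRACH in the coding sequence of Abcf1, a GCAAT and a CAAAA, had 8.97% and 8.14% in DMSO and 20.7% and 15% in STM2457.

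When all covered DRACH positions were pooled whatever their level, Abcf1 and Abcf2 carried m6A in the 3′ UTR and little in the coding sequence. Over 15 positions in the 3′ UTR of Abcf1 the pooled level was 34.7% in DMSO and 10.4% in STM2457, and over 34 positions in its coding sequence 0.791% and 0.376%. The highest of these 34 coding positions was at 4.59% in DMSO. Over 10 positions in the 3′ UTR of Abcf2 it was 21.4% and 4.52%, and over 12 in its coding sequence 2.29% and 0.767%. The highest coding position of Abcf2, a GGACC 14 nt before the stop codon, had 15.2% in DMSO and 0.971% in STM2457. It was the only one of these coding positions at 5% or more, and it also lay in the last exon.

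**Figure D2:**
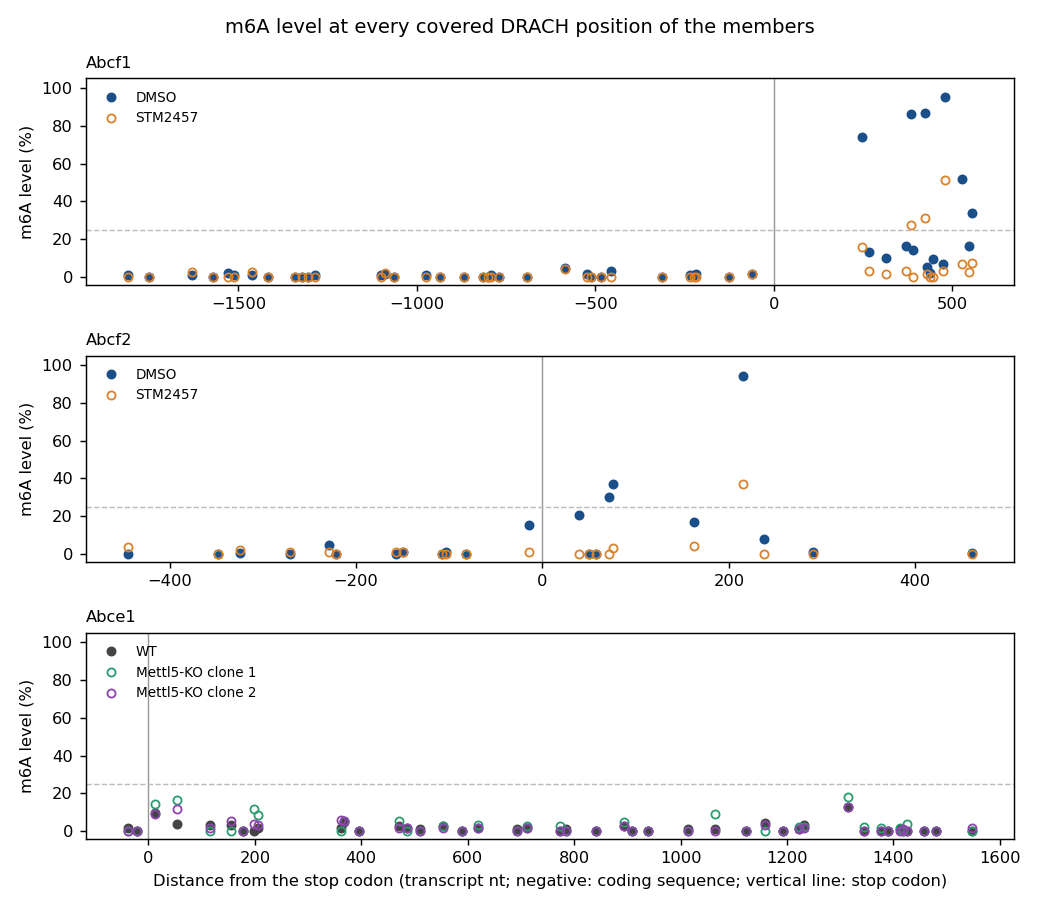
m6A level (percent of valid calls, y axis) at each covered DRACH position of Abcf1 and Abcf2 in DMSO and STM2457 and of Abce1 in WT and the Mettl5-KO clones, against distance from the stop codon (transcript nt, x axis, negative in the coding sequence). In Abcf1 and Abcf2 the positions above the dashed 25% line lie after the stop codon, while none of the 43 Abce1 positions reaches it in any library.

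Within a gene, the level followed the motif in part. The 3 GGAC positions in the 3′ UTR of Abcf1 had a pooled DMSO level of 73.7% and the 4 of Abcf2 45.3%, beside 32.3% over the 3614 such positions of all genes. The 4 TGAC positions of Abcf1 had a pooled level of 30.4%, with +423 at 86.5%, beside 6.57% over all genes. The 2 TGAC positions of Abcf2 were at 0%.

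Among the 897 genes with at least 9 covered DRACH positions in the 3′ UTR, the median pooled DMSO level was 12.8%. Abcf1 lay above 93.5% of these genes and Abcf2 above 73.9%. With STM2457 the median was 2.29%, and Abcf1 lay above 93.0% of the genes and Abcf2 above 71.6%. Over DRACH positions in all regions, the relative decrease was 65.6% in Abcf1 and 77.8% in Abcf2, beside a median of 77.3% over the 689 genes with at least 20 such positions.

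No Abce1 position of the METTL3 inhibition dataset could be used, so its answer to STM2457 was not analysed here. The DMSO and STM2457 libraries held more valid calls than the WT library, and the reason for the missing positions was not tested. Of 567 protein-coding genes with at least 100 positions in the Mettl5 dataset, 67 (11.8%) likewise had none in the other dataset. Its m6A is therefore described from WT and the Mettl5-KO clones, where 485 exon positions were covered, nearly all in the 3′ UTR.

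The long 3′ UTR of Abce1 carried little m6A at its DRACH motifs. Over 41 DRACH positions the pooled level was 1.68% for WT and 2.81% and 1.80% for clones 1 and 2. The highest in WT was the GGACA of +1315, at 12.99%, with 18% in clone 1 and 12.7% in clone 2. In WT, 39 of the 41 positions were under 5%. Its 5 GGAC positions had a pooled level of 3.82% in WT, against 22.4% over the 1173 of all genes.

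Abcf1 and Abcf2 stood at the other end in the same WT library. The pooled level was 32.6% over 14 DRACH positions of the 3′ UTR of Abcf1 and 18.8% over 9 of Abcf2. Of 325 genes compared in this way, with a median of 5.92%, 10.5% lay below Abce1, 88.6% below Abcf2 and 97.2% below Abcf1. This order of the 3′ UTR levels, Abcf1, Abcf2, Abce1, was found in all 3 libraries of the Mettl5 dataset. The order of Abcf1 above Abcf2 was also found in DMSO and STM2457.

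**Figure D3:**
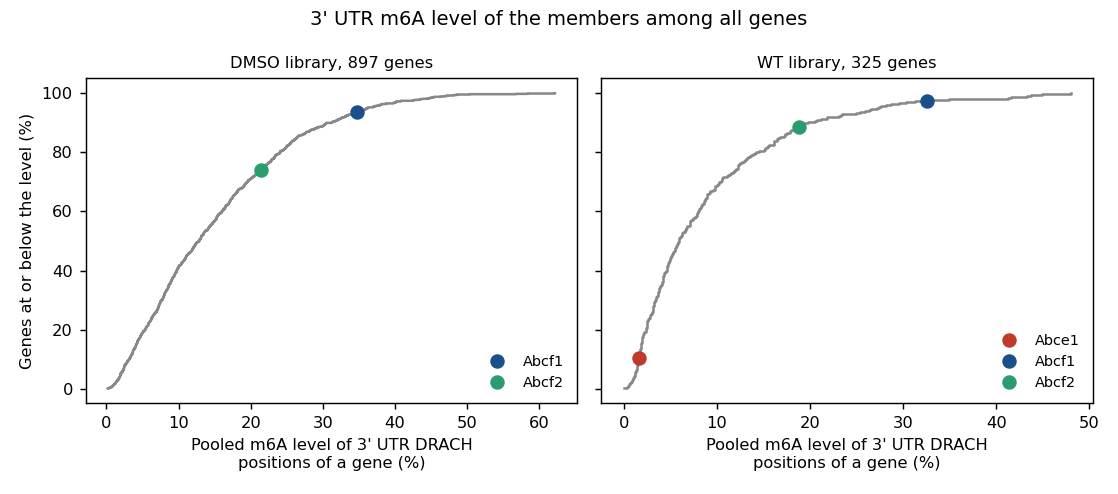
Cumulative share of genes (y axis, percent) by the pooled m6A level of their covered 3′ UTR DRACH positions (x axis, percent), in the DMSO library (897 genes) and the WT library (325 genes). Abcf1 sits near the top of both curves, Abcf2 below it, and Abce1, at 1.68%, near the bottom of the WT curve.

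Of the 11 member sites of the Mettl5 dataset, 0 were called in both Mettl5-KO clones in the same direction by Fisher's exact test, beside 0.265% of all 1886 sites. Against WT, 0 of 11 sites were called in clone 1 and 1 of 11 in clone 2, beside 0.53% and 0.583% of all sites. At an unadjusted p below 0.05 there were 2 sites (18.2%) in clone 1 and 2 (18.2%) in clone 2, beside 6.79% and 7.95% of all sites. They were Abcf1 +225 and Abce1 +139 in clone 1, and Abcf1 +225 and Abce1 +1502 in clone 2. Each counted as a site only through the clones or only through WT, so its difference from WT follows in part from the rule. No conclusion is drawn from these shares. A log2 fold change of 1.5 or more in 1 direction in both clones was met by 0 of the 11 member sites, beside 1.43% of all sites. Both clones were compared with the same WT library, so a low or high WT value enters both comparisons.

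The one called site was the GGATT of Abcf1 +225, which had the largest measured relative decrease with STM2457 in Abcf1. The interval of that decrease overlapped that of Abcf1 +527. WT had 5 of 29 m6A calls (17.2%, 5.85 to 35.8), clone 1 had 19 of 42 (45.2%, 29.9 to 61.3) and clone 2 had 24 of 38 (63.2%, 46.0 to 78.2). Both clones lay above WT. The WT level was under the threshold for a site, so the position counted as a site of this dataset through the clones alone. Sites that enter in this way lie above WT in a clone by the rule itself, and Fisher's exact test does not allow for that choice. For clone 1 the difference was 28.0 percentage points (5.73 to 45.7, p = 0.0211 and adjusted p = 0.506 by Fisher's exact test), and for clone 2 it was 45.9 (22.4 to 62.5, p = 1.93e-04 and adjusted p = 0.0363).

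No site among all 1886 had a larger rise in clone 2. The call in clone 2 was lost under 5 of the 8 alternatives that held the site, with adjusted p values from 0.0363 to 0.100 over them by Fisher's exact test, among them 0.0716 on exons of RefSeq-linked transcripts. With the calls of both clones summed, the level was 53.8% and the adjusted p was 0.0763 by Fisher's exact test. The DMSO library, from other cells, had 38.0% at this site, between WT and the clones. Over the 16 GGATT sites of all genes the median difference from WT was 5.78 points in clone 1 and 8.20 in clone 2, and over all 1886 sites it was 2.39 and 2.51.

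**Figure D4:**
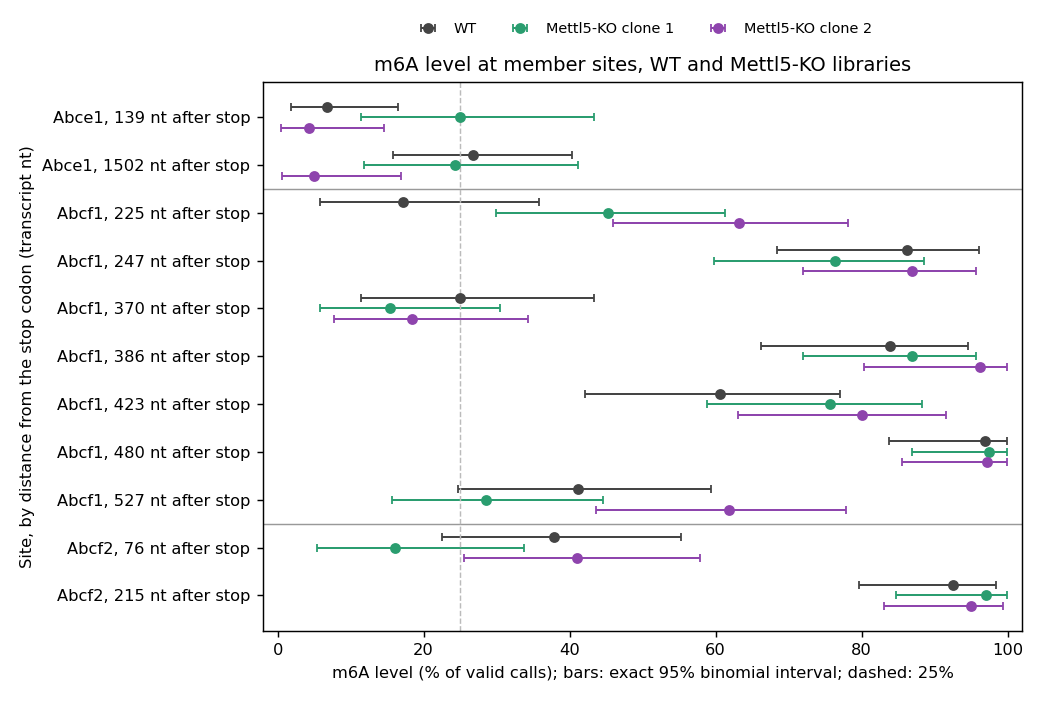
m6A level (x axis, percent of valid calls) at the 11 member sites of the Mettl5 dataset for WT and the Mettl5-KO clones 1 and 2, with exact 95% binomial intervals, by gene and distance from the stop codon (y axis). At Abcf1 +225 both clones lie right of WT, at Abcf1 +480 all libraries are near 97%, and at Abce1 +1502 clone 2 lies left of the others.

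The near-saturated sites were the most alike between libraries, but counting error is also smallest at such levels. At Abcf1 +480, 31 of 32 WT calls (96.9%), 39 of 40 clone 1 calls (97.5%) and 35 of 36 clone 2 calls (97.2%) were m6A. At Abcf2 +215 the counts were 37 of 40 in WT (92.5%), 33 of 34 in clone 1 (97.1%) and 38 of 40 in clone 2 (95%). At these depths the difference from WT at Abcf1 +480 had an interval of −10.1 to 13.4 points in clone 1 and −11.3 to 13.2 in clone 2.

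The sites of Abcf1 at intermediate or high level varied between libraries without a call. For +247 the levels of WT, clone 1 and clone 2 were 86.2%, 76.3% and 86.8%. At +386 they were 83.9%, 86.8% and 96.2%, with 31.6% of the clone 2 calls at this position failing the confidence filter. Counting those failed calls in the denominator put clone 2 below WT there, by −13.00 points. At +423 they were 60.6%, 75.7% and 80.0%, so WT was the lowest of the 3 libraries, and the adjusted p was 0.839 for clone 1 and 0.725 for clone 2 by Fisher's exact test.

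The clones also lay on either side of WT. At the GGACT of Abcf1 +527, 14 of 34 WT calls (41.2%), 12 of 42 clone 1 calls (28.6%) and 21 of 34 clone 2 calls (61.8%) were m6A. The clones differed from each other by 33.2 points there (10.7 to 51.5, p = 0.00522 and adjusted p = 0.738 by Fisher's exact test), the largest difference between them among the member sites. At the GGACC of Abcf2 +76, WT had 37.8%, clone 1 16.1% and clone 2 41.0%. The AGACC of Abcf1 +370 reached the threshold only in WT, with exactly 25% (8 of 32), against 15.4% in clone 1 and 18.4% in clone 2.

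Both Abce1 sites were at or near the threshold, and neither was called in a clone or between the clones. At the GTAAA of +139, 4 of 59 WT calls (6.78%), 8 of 32 clone 1 calls (25%) and 2 of 47 clone 2 calls (4.26%) were m6A, so it counted as a site through clone 1 alone. At the CTAAA of +1502, 15 of 56 WT calls (26.8%), 9 of 37 clone 1 calls (24.3%) and 2 of 40 clone 2 calls (5%) were m6A. Between the clones the adjusted p was 0.869 at +139 and 0.978 at +1502 by Fisher's exact test. In clone 2 the latter was 21.8 points below WT (6.65 to 35.1 points below, p = 0.00628 and adjusted p = 0.282 by Fisher's exact test). The +1502 position counted as a site through WT alone. Both clones therefore lie below WT there by the rule itself, and Fisher's exact test does not allow for that choice. At that position 26.3% of WT calls, 27.5% of clone 1 calls and 39.4% of clone 2 calls failed the confidence filter, and their part was not tested. Over all genes of the METTL3 inhibition dataset, the 14 sites with GTAAA had a median relative decrease of 0.641% with STM2457, and 3 were called changed, and of the 4 with CTAAA 0 were called by Fisher's exact test.

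Between the clones themselves, 0 of 11 member sites were called by Fisher's exact test, beside 0.053% of all sites, with 4 member sites (36.4%) and 4.51% of all sites at an unadjusted p below 0.05. Among these, Abce1 +139 counted as a site through clone 1 alone. The median absolute difference between the clones was 10.5 points over the member sites and 6.20 over all sites. The member sites had between 26 and 59 valid calls per library, and the median depth of all sites was 41 to 48.

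DMSO was also set beside WT at the 8 sites shared by the datasets, which differ in cell line, treatment and batch, and these cannot be told apart. The DMSO and WT libraries are those used in the comparisons above. One member site was called by Fisher's exact test, beside 8.72% of the 1215 shared sites of all genes. This was Abcf1 +423, at 86.5% in DMSO and 60.6% in WT, a difference of 25.9 points (9.59 to 43.5, adjusted p = 0.0293 by Fisher's exact test). When libraries were thinned to equal coverage the adjusted p was 0.295 by the same exact test. The levels of Abcf1 +480 (95.3% and 96.9%), Abcf2 +215 (94.4% and 92.5%) and Abcf2 +76 (37.3% and 37.8%) lay within 2 points of each other. Larger differences without a call were found at Abcf1 +225, with 38.0% in DMSO and 17.2% in WT (20.7 points, 1.4 to 34.2, p = 0.0458 and adjusted p = 0.180 by Fisher's exact test). For DMSO minus WT, Abcf1 +247 had −12.4 points and Abcf1 +527 had 10.8.

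Read depth of the members was compared as a log2 ratio of the mean depth over their exon positions, scaled to the total valid calls of each library. Abcf1 had a ratio of −0.69 for STM2457 to DMSO, with 2.84% of 2291 genes below it and a median of 0.10 over those genes, and Abcf2 had −0.15. In the Mettl5 dataset Abce1 had −0.47 in clone 1, with 5.82% of 807 genes below it, and 0.03 in clone 2. Abcf1 had 0.58 in clone 1 and 0.41 in clone 2, with 87.1% and 72.6% of genes below it. Abcf2 had 0.07 in both clones, with 42.3% and 40.6% of genes below it. The median over the 807 genes was 0.13 in clone 1 and 0.18 in clone 2. These are single libraries with no replicate check, and in such bulk samples fewer cells with the transcript and less RNA per cell cannot be told apart.

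Genes with related work in ribosome rescue, termination and recycling were taken from a list of 27 names, of which 26 were annotated. In the METTL3 inhibition dataset 12 of them were covered and 8 had 51 sites, of which 47 were called lower with STM2457 and 0 higher, with a median relative decrease of 73.7%. Over all sites of the dataset, 91.5% were called lower and the median decrease was 79.9%, so the list was near the background. The listed gene with the highest number of sites was Pelo, the rescue factor that recognises stalled ribosomes together with Hbs1l, with 13 of 14 called lower and a mean level of 61.9% in DMSO and 18.5% in STM2457. In Usp10, a deubiquitinase acting on ribosomal proteins, 13 of 13 sites were called lower, from a mean of 76.2% to 33.0%. For G3bp1, a stress granule protein that binds Usp10, 6 of 6 were called lower, from 68.3% to 20.4%. In Zfp598, the ubiquitin ligase that marks collided ribosomes, it was 6 of 6, from 73.1% to 17.3%. In Rack1, a protein of the small ribosomal subunit named here after its values were seen, 0 of 2 sites were called by Fisher's exact test, with a mean level of 27.9% in DMSO and 33.8% in STM2457. Abcf3, the remaining ABC-F gene of the list, had no position used here. In the Mettl5 dataset 5 of the listed genes were covered, and they held 6 sites. By Fisher's exact test 0 of these were called in either clone, beside 0.53% of all sites in clone 1 and 0.583% in clone 2. At an unadjusted p below 0.05 there was 1 site in each clone, beside 6.79% and 7.95% of all sites. With so few sites, these counts do not set the list apart from all sites.

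By mean site level over the 5 libraries, the genes nearest to Abcf1 among the 294 compared were Ncl, Erp29 and Sox2, at distances of 7.77, 10.1 and 10.4 percentage points. Those nearest to Abcf2 were Orc6, Rbm38 and Csnk1a1, at 14.98, 15.7 and 15.7 points. The distance is Euclidean and rests on as few as 2 sites per gene in a dataset.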

How the data were processed

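The authors demultiplexed the nanopore direct RNA reads with WarpDemuX, called bases and modifications (inosine, m6A and 2′-O-methyl-A) and aligned to mm10 with dorado 1.4.0, and counted calls per position with modkit pileup 0.4.4. The deposited counts of valid, m6A, unmodified, other and failed calls are raw counts per position and strand. The methods of the study keep only positions with more than 25 reads in each library of a dataset. The lowest depth at a member position was 25 valid calls. A gene without a covered position here may therefore still have had reads. The deposited percent values are m6A calls over valid calls, so failed calls are left out, and the level was recomputed here from the counts. Sequencing begins at the poly(A) tail, so 3′ ends are covered most.

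Sites, exons and windows came from GENCODE M21, which shares its build with the files. Fisher's exact test was run at every site (scipy 1.17.1, statsmodels 0.14.6, pandas 2.3.3 and numpy 2.4.6 under Python 3.11.15), and checked on simulated data. Levels have exact binomial intervals, differences have Newcombe 95% intervals and relative decreases have log-ratio intervals. A count of 0 was given a floor of 3 calls. The minimum of 9 3′ UTR positions was set so that each member entered.

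Samples were grouped by their labels. The rule named each member site, the 4 listed rescue genes with most sites and the 3 genes most like each member with at least 2 sites per dataset. The members and gene lists were chosen with earlier results of these data known. Alternatives covered coverage, level, denominator, motif, exons, thinning and each clone left out.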

Additional observations from a re-analysis of the deposited data

How the results depend on the processing

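No paired analysis was possible because DMSO, STM2457 and WT have 1 library each and no shared culture links them to a clone. At the single sites compared between STM2457 and DMSO, 101 of 101 alternative values kept their direction and their side of the threshold. Most alternatives leave the counts of a site unchanged, so its direction could not change under them. Only the alternatives of the denominator and thinning change these counts. The number of member sites called lower with STM2457 was 17 at a level of 10% or more and 6 at 50% or more, where 29 and 6 sites entered, and 9 to 10 under the other alternatives. Over every A whatever its motif the relative decrease of the members fell to 46.4% from 71.1%. The median relative decrease at the sites lay between 66.1% and 78.0%. The count of sites called in both clones was 0 under every alternative with a value, except that it was 0 to 1 when a clone was left out and only the other was tested. With clone 1 left out the 1 site was Abcf1 +225. At this site in clone 2, against WT, the adjusted p by Fisher's exact test was 0.0716 on RefSeq-linked exons (chosen after seeing the data), 0.0885 with failed calls in the denominator, 0.100 and 0.0525 at levels of 10% and 50% or more, and 0.0774 with thinned libraries. For DMSO against WT the count was 0 with thinned libraries and 1 under the alternatives other than this. A coverage of at least 50 left no member site in the Mettl5 dataset and gave no value there. None of the differences that changed sign had been called. With failed calls in the denominator, Abcf1 +480 moved to 1.34 points for DMSO minus WT, −1.08 for clone 1 minus WT and 4.37 for clone 2 minus clone 1. Abcf1 +386 moved to −12.7 points for DMSO minus WT, −13.00 for clone 2 minus WT and −14.7 for clone 2 minus clone 1. With thinned libraries Abcf1 +247 was at −3.45 points for clone 2 minus WT and Abcf2 +215 at −2.50 for DMSO minus WT. The cause of these changes was not tested.

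With 1 library per condition, the spread between cultures is not known. The member sites had 26 to 59 valid calls in the Mettl5 dataset, so small differences from WT could be missed. The smallest difference that could be detected was not computed. Abce1 was not analysed with STM2457. Windows come from the reference build, and differences of these cells from it were not analysed here.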

Other observations

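The caller also gave calls of adenosine modifications other than m6A. In the levels and tests above they counted among the valid calls that were not m6A, and they were not compared by themselves. At the exon positions of the members they made up between 0.293% and 0.774% of valid calls per gene and library. Over all positions they made up 0.417% to 0.778% per library. Abcf2 lay above all positions in DMSO (0.774% beside 0.453%) and in STM2457 (0.681% beside 0.417%). The other shares of the members lay below that of all positions in the same library. The position of the members with the highest share was chr5:24565991 in the coding sequence of Abcf2, chosen after its values were seen. Of its valid calls, 43 of 127 in DMSO (33.9%), 16 of 73 in STM2457 (21.9%), 2 of 37 in WT (5.41%), 1 of 31 in clone 1 (3.23%) and 6 of 35 in clone 2 (17.1%) were of this kind, and 0 were m6A in any library. This difference between libraries was not tested.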
